A study of Mus musculus with 12 samples.

Results

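Imprinted genes were followed across 4 sorted cell types of the mouse embryo at stage E7.25. A list of 35 imprinted genes was matched by Ensembl identifier to the 38924 genes in the count files, which found 33 of them. Kcnq1ot1, the long noncoding RNA of the Cdkn1c domain, and Snrpn, a splicing protein gene of the Prader-Willi domain, had no matching identifier and were not analysed here. All embryos came from the Foxa2Cre:Rosa26-YFP line, in which Cre driven from Foxa2 switches on a yellow fluorescent reporter (YFP) that marks cells that express Foxa2 and their descendants. The 12 libraries comprised 3 of YFP+ cardiac mesoderm (ventricular in the labels), 3 of YFP- cardiac mesoderm (non-ventricular), 3 of endoderm sorted by EPCAM and 3 of hematopoietic mesoderm sorted by KDR. The labels name no treatment, and the 4 types share the line and the stage. The study's title concerns the commitment of mesoderm to the heart, and the comparison here asked which imprinted genes differ between these early types.

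Imprinted genes are expressed mainly from 1 parental copy, because methylation laid down in the egg or sperm marks control regions that later silence the other copy. Many of them set embryonic and placental growth, and by a widely held view paternally expressed members tend to promote it and maternally expressed members to restrain it. The genes lie in clusters, in which a single control region can govern coding genes and long noncoding RNAs together. The counts carry no allelic information, so the parental copy named for a gene is background and was not measured.

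The libraries held 4472800 to 7888631 reads assigned to genes, 18.3% to 21.5% of the tallied reads. Levels are given in CPM, a count scaled to a common library total, and a gene with 3 counts would read 0.357 CPM in the deepest library and 0.723 CPM in the shallowest. The labels do not say that replicates came from separate litters, and p-values measure the spread between these samples. Several defining markers followed the labels: Cdh5 was 101 to 160 CPM in hematopoietic mesoderm and at most 2.51 elsewhere, Pdgfra was 204 to 387 CPM in cardiac mesoderm and at most 48.3 elsewhere, and Foxa2 was 52.3 to 62.3 CPM in endoderm. Foxa2 was at most 5.92 CPM in YFP+ cardiac mesoderm, which is sorted on its history. Other markers separated the types less: Etv2 was 34.2 to 59 CPM in YFP- cardiac and 28.2 to 42.6 in hematopoietic mesoderm, Hhex was 106 to 141 CPM in endoderm and 70.6 to 147 in hematopoietic mesoderm, and Kdr was 665 to 965 CPM in hematopoietic and 444 to 622 in cardiac mesoderm. Endoderm also held all 8 visceral endoderm markers on the list, with a summed level of 1571 to 4687 CPM against 5.18 to 63.6 in the other types, and 4 epiblast markers summed to 744 to 790 CPM there against 7.27 to 445 in the others. Hematopoietic mesoderm replicate 3 stood apart in its type: Hand1 was 417 CPM against 47.5 and 81.4 in replicates 1 and 2, Eomes 264 against 49.4 and 28.2, and Snai1 46.8 against 0 and 0.17. Results that change without a library are given with and without it.

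Most of the imprinted genes were detected in all 4 types. Together they took 9202 ± 786, 8449.5 ± 659, 7909 ± 1117 and 9370.2 ± 1874 CPM in YFP+ cardiac mesoderm, YFP- cardiac mesoderm, endoderm and hematopoietic mesoderm (mean ± SD, n = 3), under 1% of the counts in each. Of the 33, 28 averaged at least 10 CPM in at least 1 type, 11 averaged at least 100 CPM in every type, and 26 had at least 1 count in all 12 libraries. Dcn, which encodes the matrix proteoglycan decorin, was at 0 in all 12, and the other 32 passed the filter on low counts and were tested. Per exon length, which allows genes to be compared, Peg10 and Peg3 stood highest, with medians over the 12 libraries of 192 and 187 CPM per kilobase of exon (RPKM). H19 followed at 160.2 RPKM, Phlda2 at 128 and Igf2 at 97.8. The plot of all members by library shows the same order of magnitude in every type for the upper rows and isolated high libraries in the lowest ones.

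**Figure D1:**
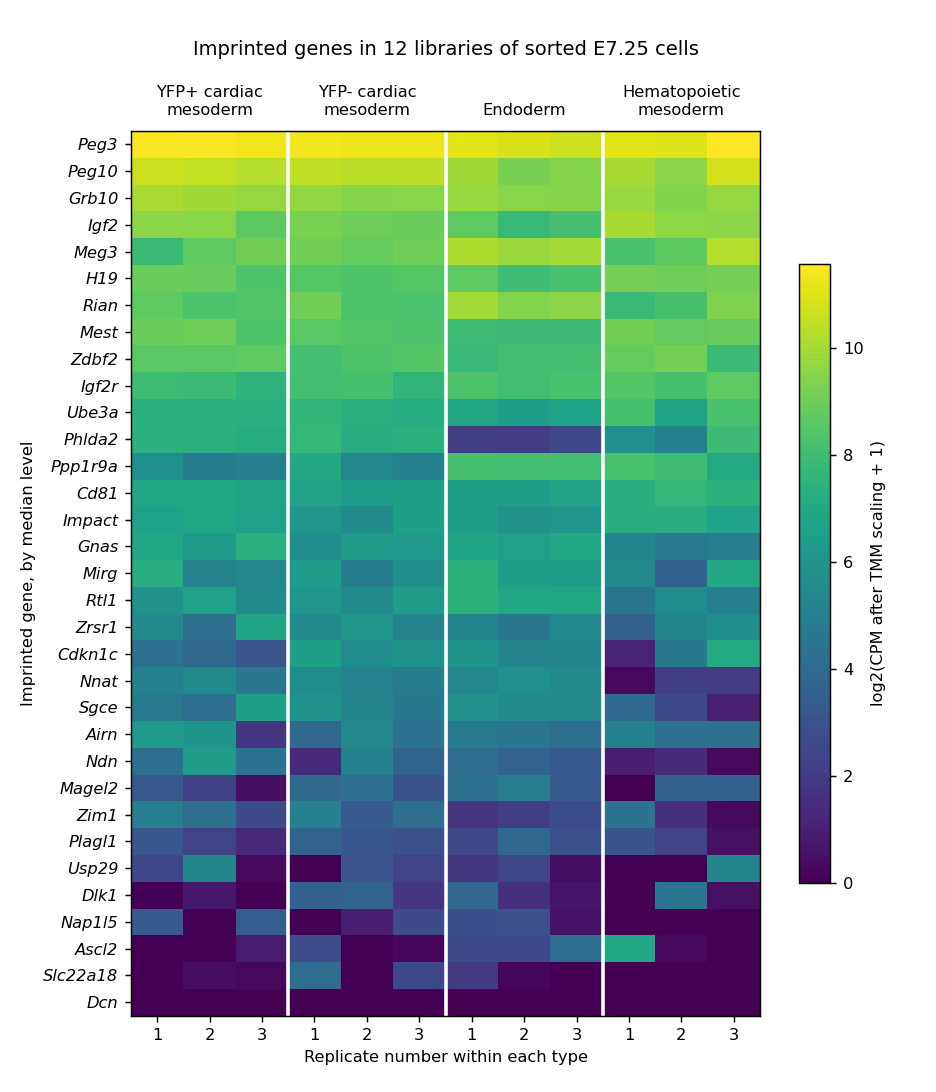
Levels of the 33 matched imprinted genes (rows, by median level) in each of the 12 libraries (columns, 3 replicates for each of 4 types), as log2 of CPM plus 1. Phlda2 is dark in the 3 endoderm libraries (3.24 to 4.87 CPM), Nnat is dark in the 3 hematopoietic libraries (0.24 to 3.46 CPM), and Dcn is at 0 throughout.

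Differences between types were tested with edgeR's quasi-likelihood test in 1 fit over all 12 libraries, with Benjamini-Hochberg adjustment over the 14170 genes tested in a pair. This adjusted p is the one given throughout unless another tool is named. A total of 8 of the 32 tested members (25.0%) passed at 0.05 in at least 1 of the 6 pairs, against 6.82% of all genes tested. They were Phlda2, Igf2, H19, Mest, Rtl1, Ppp1r9a, Nnat and Gnas, and they made 14 calls over the 6 pairs.

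The pair with the most calls was endoderm against hematopoietic mesoderm, with 7 of the 14, or 21.9% of the 32 members, where 5.65% of all genes passed. Nnat, Rtl1 and Gnas were higher in endoderm, while Phlda2, Igf2, Mest and H19 were lower. The members' median log2 fold change, endoderm over hematopoietic mesoderm, was -0.15, beside 0.07 for all genes. Libraries of these types did not overlap for 13 members (40.6%), with 34.3% of all genes doing so. Without endoderm replicate 3 a single member passed (all genes 1.199%), without endoderm replicate 2 there were 3 (all genes 1.25%), and DESeq2 called 12 (all genes 13.2%).

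Between YFP+ cardiac mesoderm and endoderm 3 members passed (9.38%; all genes 1.54%): Phlda2 and Mest were higher in the cardiac cells and Ppp1r9a was lower. The members' median log2 fold change was 0.29, and 0.01 over all genes. Libraries did not overlap for 16 members (50%), against 30.3% of all genes. The number passing was 1 without YFP+ replicate 2 (all genes 0.983%) and without endoderm replicate 1 (0.473%), 7 without hematopoietic replicate 3 (2.65%), and 7 with DESeq2 (6.52%). Between YFP- cardiac mesoderm and endoderm only Phlda2 passed (3.13%; all genes 1.31%), with a median of 0.10 for members and 0.01 for all genes. Libraries did not overlap for 13 members (40.6%), against 29.4% of all genes. In that pair 2 members passed without YFP- replicate 1 (all genes 0.573%), 5 without hematopoietic replicate 3 (2.14%) and 4 with DESeq2 (4.27%). Both pairs share the endoderm libraries.

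Against hematopoietic mesoderm, YFP+ cardiac mesoderm differed in 3 members (9.38%; all genes 1.79%): Nnat and Gnas were higher and Ppp1r9a was lower. The median log2 fold change was 0.21 for members and 0.03 for all genes, and 9 members did not overlap (28.1%; all genes 14%). None passed without YFP+ replicate 3 (all genes 0.695%), 1 passed without YFP+ replicate 2 (0.911%) or without endoderm replicate 1 (0.706%), and DESeq2 called 7 (10.5%). No member passed between YFP- cardiac and hematopoietic mesoderm in the main edgeR fit, where 0.593% of all genes passed. In that pair 13 members (40.6%) were under an unadjusted p of 0.05, as were 17.4% of all genes, DESeq2 called 8 (all genes 7.53%), and the smallest adjusted p in edgeR was 0.0518, for Nnat. Without YFP- replicate 1 (all genes 0.184%) or hematopoietic replicate 2 (1.62%) a single member passed, and without hematopoietic replicate 3 (1.43%) there were 2, Nnat and Phlda2. The medians were 0.07 for members and 0.02 for all genes, and 10 members did not overlap (31.3%; all genes 18.6%).

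The 2 cardiac populations, separated by the YFP history of Foxa2, could not be distinguished by any single imprinted gene at these replicate numbers. With edgeR 0 members passed, as did 0% of all genes, and DESeq2 called 0 members and 108 of all genes. At an unadjusted p under 0.05 there were 4 members (12.5%), with 1062 genes in all (7.49%): Grb10 and Gnas read higher in YFP+ cells, and Cdkn1c and Dlk1 read lower. The smallest adjusted p was 0.626, for Grb10. The members' median log2 fold change, YFP+ over YFP-, was 0.11 and that of all genes 0.03. Libraries of the 2 populations did not overlap for 6 members (18.8%; all genes 12.1%), namely Cdkn1c, Grb10, Dlk1, Gnas, Impact and Zdbf2. A p above the threshold does not show that the 2 populations were alike.

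**Figure D2:**
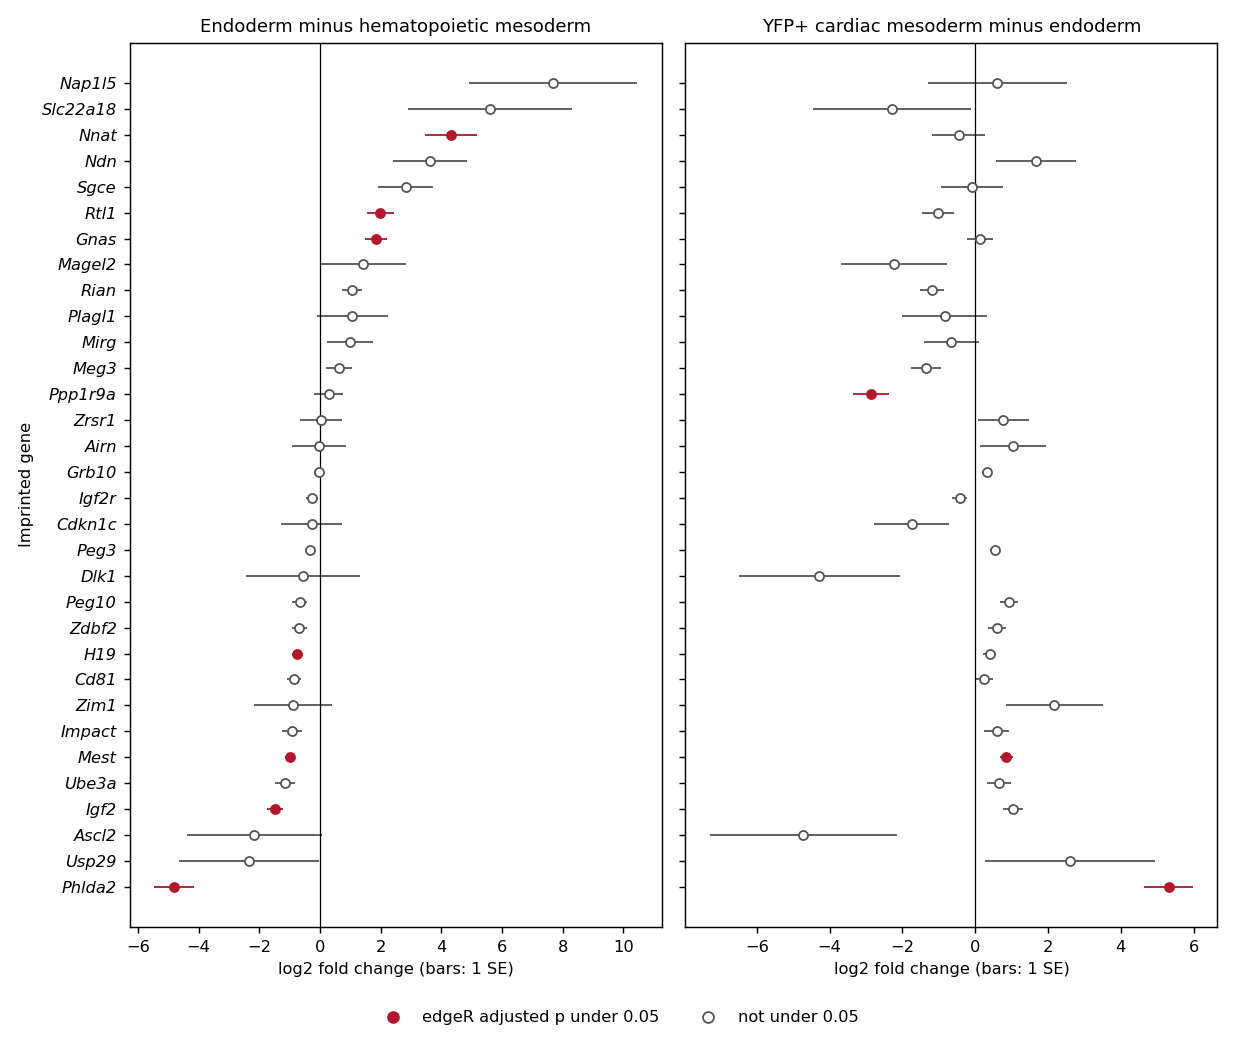
Log2 fold changes of the 32 tested imprinted genes (rows) for endoderm minus hematopoietic mesoderm (left) and YFP+ cardiac mesoderm minus endoderm (right), with bars of 1 SE and filled points for an adjusted p under 0.05. The panels share the endoderm libraries, Phlda2 lies at -4.82 on the left and 5.32 on the right, and the values of Nap1l5 and Slc22a18 on the left depend on the model because both were at 0 in all 3 hematopoietic libraries.

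Of the members that passed the test, Phlda2 had the widest fitted difference between types. In the main fit it was the only member that passed as lowest in a type against each of the other 3, a rule met by 0.466% of all genes in endoderm. Lowest in endoderm at an unadjusted p under 0.05 were 5 members (Igf2, Mest, Peg10, Peg3 and Phlda2). The share of all genes at that threshold was not counted. Phlda2 encodes a small pleckstrin-homology protein that restrains placental growth, is expressed from the maternal copy, and lies on chromosome 7 (143501545 to 143503150, minus strand, GRCm38) in the Kcnq1ot1 domain. Phlda2 measured 165, 161 and 141 CPM in YFP+ cardiac mesoderm replicates 1, 2 and 3, and 210.1, 147 and 163 CPM in YFP- cardiac mesoderm. Endoderm had 3.50, 3.24 and 4.87 CPM, from 22 to 41 counts a library, and hematopoietic mesoderm had 56.1, 33.1 and 242 CPM. Every endoderm library thus lay below every other library, and within hematopoietic mesoderm replicate 3 was above all cardiac libraries while replicates 1 and 2 were below them. Phlda2 was 39.9-fold higher in YFP+ cardiac mesoderm than in endoderm (log2 fold change 5.32 ± 0.67 (SE), adjusted p = 0.00124). It was 44.5-fold higher in YFP- cardiac mesoderm than in endoderm (5.47 ± 0.68, adjusted p = 0.00114). Endoderm was 28.3-fold lower than hematopoietic mesoderm (-4.82 ± 0.66, adjusted p = 0.00156). That last value was -3.51 without hematopoietic replicate 3, the highest of its type. These 3 calls held without any 1 of the 12 libraries and under every other setting tried, with adjusted p of at most 0.0299. In endoderm replicates 1, 2 and 3 the 8 visceral endoderm markers summed to 4687, 1571 and 2609 CPM. The 4 extraembryonic mesoderm markers summed to 798 to 1333 CPM in cardiac mesoderm and 71.5 to 119 in endoderm, and to 447, 462 and 1214 CPM in hematopoietic replicates 1, 2 and 3. The part of either list in the Phlda2 level was not tested. In bulk libraries fewer expressing cells and less RNA per cell cannot be told apart, here as for every gene that follows.

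The 250 bases before the RefSeq start of Phlda2 (GRCm38.p6, chr7:143502525-143502774, minus strand) are shown because this gene carries the clearest difference. They hold 21 CpG dinucleotides, in capitals, the pair at which DNA is methylated. The median of 32851 such windows over all genes was 6 CpG, and 16.3% of them had at least as many as Phlda2. Methylation was not measured in these samples, and whether this stretch has a part in the imprint or in the Phlda2 level was not tested.
Phlda2: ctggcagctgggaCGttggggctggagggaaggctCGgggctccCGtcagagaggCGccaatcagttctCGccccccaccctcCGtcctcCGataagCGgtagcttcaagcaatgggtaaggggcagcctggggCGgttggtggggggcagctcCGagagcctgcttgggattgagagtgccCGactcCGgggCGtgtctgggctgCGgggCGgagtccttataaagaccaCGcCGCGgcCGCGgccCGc

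The other maternally expressed growth-restraining genes were less sharply divided. Igf2r, the receptor that carries IGF2 to the lysosome for degradation, measured 254, 237 and 179.7 CPM in YFP+ cardiac, 288, 292 and 192 in YFP- cardiac, 323, 269 and 305 in endoderm and 355, 299 and 418 in hematopoietic libraries. All 3 hematopoietic libraries were above all 6 cardiac ones, but no pair passed, and the smallest adjusted p was 0.114 (YFP+ cardiac over hematopoietic, log2 fold change -0.68 ± 0.21). DESeq2 called that pair. Grb10, an adaptor that dampens insulin and IGF receptor signalling, was among the most even members, from 670 to 1095 CPM. It measured 1095, 982 and 869 CPM in YFP+ and 833, 701 and 722 in YFP- cardiac mesoderm, with the YFP+ libraries all above the YFP- ones (log2 fold change 0.38 ± 0.14, adjusted p = 0.626). In endoderm it was 888, 733 and 717 CPM and in hematopoietic mesoderm 896, 669.7 and 846 CPM.

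Cdkn1c, the cell cycle inhibitor p57, was 19.1, 13.7 and 7.40 CPM in YFP+ and 93.7, 48.2 and 59.0 CPM in YFP- cardiac mesoderm. These libraries did not overlap, and YFP+ read 4.99-fold lower (log2 fold change -2.32 ± 1.05, adjusted p = 0.656). Endoderm had 62.2, 35.2 and 37.3 CPM, while hematopoietic mesoderm had 1.205, 24.8 and 136 CPM and so covered more than the range of all other libraries. The 2 extremes were hematopoietic replicates 1 and 3, the second of which also carried the high Hand1 and Eomes levels given above, and their part in this spread was not tested. Ndn, or necdin, a paternally expressed suppressor of cell growth in the Prader-Willi domain, measured 17.7, 79.6 and 19.99 CPM in YFP+ cardiac, 1.68, 32.9 and 12.2 in YFP- cardiac and 16.7, 11.5 and 8.68 in endoderm. In hematopoietic mesoderm it was 0.96, 1.73 and 0.21 CPM, below every YFP+ cardiac and endoderm library, with adjusted p of 0.0608 and 0.091. DESeq2 called both of these pairs.

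Igf2, the paternally expressed growth factor that signals through the IGF1 and insulin receptors, lies on chromosome 7 (142650766 to 142666816). It measured 759, 733 and 405 CPM in YFP+ cardiac, 604, 516 and 490.3 in YFP- cardiac, 421, 218 and 287 in endoderm and 1065, 775 and 763 in hematopoietic libraries. Every hematopoietic library lay above every other library, with the smallest gap to YFP+ replicate 1 (763 against 759 CPM). Endoderm had 2.81-fold less Igf2 RNA than hematopoietic mesoderm (log2 fold change -1.49 ± 0.27, adjusted p = 0.00798). That call was lost without endoderm replicate 3 (adjusted p = 0.0563) and with no other single library. YFP+ cardiac mesoderm over endoderm gave 1.04 ± 0.26 with an adjusted p of 0.0713, and 0.0239 without YFP+ replicate 3, the lowest of its type. That pair passed with no expression filter (0.0156), DESeq2 (0.00667), limma's voom (0.01975) and the replicate number as a block (0.033). It did not pass with RLE scaling, a mean of at least 5 CPM or the 2 types fitted alone. YFP- cardiac mesoderm against endoderm passed with voom (0.00932) and with the 2 types fitted alone (0.0481). The other ligand of the list, Dlk1, which encodes a membrane protein related to Notch ligands, averaged under 10 CPM in every type and was at most 22.3 CPM in any library. It was at 0 in YFP+ cardiac replicates 1 and 3 and 0.73 CPM in replicate 2, against 2.61 to 11.8 CPM in YFP- cardiac mesoderm.

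H19, the maternally expressed long noncoding RNA downstream of Igf2 (chromosome 7, 142575529 to 142578143), shares enhancers and a control region with it. Its levels were 491, 468 and 339 CPM in YFP+ cardiac, 366, 332 and 371 in YFP- cardiac, 417, 259.6 and 308 in endoderm and 562, 515 and 571 in hematopoietic mesoderm. The hematopoietic libraries were above all others. Endoderm had 1.67-fold less H19 RNA than hematopoietic mesoderm (log2 fold change -0.74 ± 0.19, adjusted p = 0.0375). This call was fragile: it was lost without any 1 of YFP- cardiac replicates 1, 2 and 3, endoderm replicates 2 and 3 and hematopoietic replicates 1 and 3, with adjusted p up to 0.173, at 0.051 with RLE scaling and at 0.0552 with the 2 types fitted alone.

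Within a library the ratio of H19 to Igf2 counts needs no scaling between libraries. It was 0.99, 1.19 and 1.07 in endoderm, and 0.53 to 0.84 in the other 9 libraries, so that endoderm did not overlap any other type. The means were 0.71 ± 0.11 in YFP+ cardiac, 0.67 ± 0.08 in YFP- cardiac, 1.09 ± 0.10 in endoderm and 0.65 ± 0.11 in hematopoietic mesoderm (SD, n = 3). Each comparison with endoderm gave p = 0.1 in a two-sided exact permutation test, the smallest that 3 against 3 libraries allow, and 0.4 after adjustment over 12 tests of 2 such ratios. The ratio was chosen after the levels had been seen, and gene lengths enter it, so its size is not a molar ratio.

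**Figure D3:**
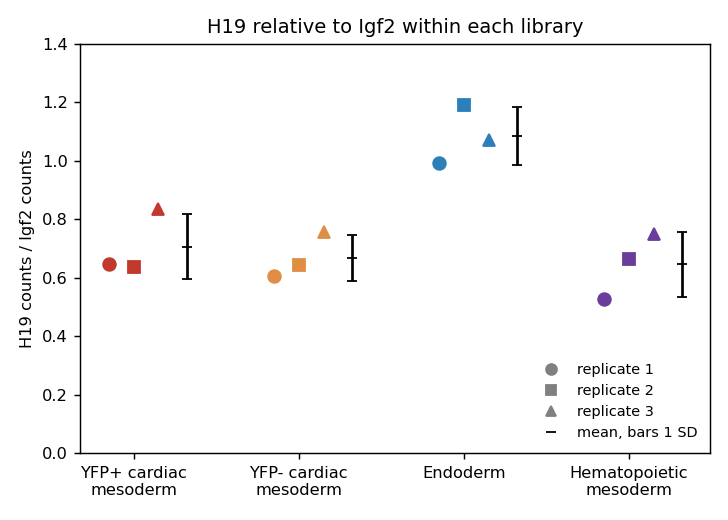
H19 counts divided by Igf2 counts in each of the 12 libraries, by type, with mean and 1 SD beside the 3 points of a type. Endoderm lies at 0.99 to 1.19 and the other 9 libraries at 0.53 to 0.84.

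Airn, the long noncoding RNA whose transcription silences the paternal Igf2r copy, was 72.8, 62.5 and 2.59 CPM in YFP+ cardiac, 14.2, 39.5 and 18.7 in YFP- cardiac, 26.6, 22.7 and 17.9 in endoderm and 32.5, 18.2 and 18.1 in hematopoietic mesoderm. All 4 types overlapped and no pair approached the threshold (smallest adjusted p 0.597 in pairs with hematopoietic mesoderm and 0.703 with endoderm). The single low value, 2.59 CPM, was YFP+ replicate 3.

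The maternally expressed RNAs of the Dlk1-Meg3 domain on chromosome 12, Meg3, Rian and Mirg, and the paternally expressed gene Rtl1 of the same domain all averaged highest in endoderm. Meg3, a long noncoding RNA, measured 237, 411 and 539 CPM in YFP+ cardiac, 554, 457 and 515 in YFP- cardiac, 1133, 899 and 1002 in endoderm and 307, 407 and 1249.8 in hematopoietic mesoderm. Endoderm was above all cardiac libraries, and hematopoietic replicate 3 was above endoderm. In that replicate the markers Hand1 and Eomes were also high, and whether the 2 are connected was not tested. Log2 fold changes of cardiac mesoderm over endoderm were -1.35 ± 0.42 for YFP+ (adjusted p = 0.124) and -0.99 ± 0.42 for YFP- (adjusted p = 0.403). Without hematopoietic replicate 3 Meg3 passed between YFP+ cardiac mesoderm and endoderm (adjusted p = 0.0092) and between endoderm and hematopoietic mesoderm (1.51, adjusted p = 0.0104). With limma's voom endoderm passed against each other type (0.0205 for YFP+ cardiac, 0.00174 for YFP- cardiac and 0.0455 for hematopoietic mesoderm). DESeq2 called none of those pairs. Both cardiac pairs passed with the 2 types fitted alone (0.0292 and 0.000966), and the YFP+ pair with no expression filter (0.0361).

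Rian, which hosts small nucleolar RNAs and microRNAs, was 418, 312 and 345 CPM in YFP+ cardiac, 533, 336 and 313 in YFP- cardiac, 1008, 694 and 752 in endoderm and 232, 298 and 639.9 in hematopoietic mesoderm. All endoderm libraries were above all 9 others. With all libraries its adjusted p against the 3 other types was 0.0916, 0.158 and 0.0692, and without hematopoietic replicate 3 it was 0.012, 0.0246 and 0.00441, which made Rian the only member called highest in a type in any edgeR fit that left a library out. With all libraries 0 members passed as highest in endoderm, where 0.303% of all genes did, and 2 did so at an unadjusted p under 0.05 (Rian and Rtl1). DESeq2 called 1, Rian, and limma's voom called 1, Meg3. The same count was 0 in hematopoietic mesoderm (all genes 0.0917%; 1 member, Cd81, at an unadjusted p under 0.05 and 0 with DESeq2). In each cardiac type it was 0 with edgeR and DESeq2 and at an unadjusted p under 0.05. The shares of all genes at an unadjusted p, with DESeq2 or with voom were not counted for this rule. Mirg, a microRNA host transcript at the end of the cluster, scattered within types, with 146, 35.2 and 40.5 CPM in YFP+ cardiac, 82.3, 28.7 and 51.0 in YFP- cardiac, 172, 91.1 and 86.5 in endoderm and 46.0, 11.3 and 118 in hematopoietic mesoderm.

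Rtl1, a gene derived from a retrotransposon that is needed in placental vessels, lies between Meg3 and Rian on the opposite strand (chromosome 12, 109589193 to 109600330, minus). It measured 59.7, 97.9 and 43.7 CPM in YFP+ cardiac, 64.2, 42.7 and 80.1 in YFP- cardiac, 172, 119 and 117 in endoderm and 22.6, 49.0 and 30.7 in hematopoietic mesoderm. Endoderm libraries were above all 9 others. Rtl1 was 3.98-fold higher in endoderm than in hematopoietic mesoderm (log2 fold change 1.99 ± 0.45, adjusted p = 0.0262). The call was lost without any 1 of the 3 endoderm libraries or hematopoietic replicates 1 or 3, with adjusted p of 0.052 to 0.121, and with limma's voom (0.0867). Against endoderm the cardiac types gave -1.02 ± 0.44 and -1.12 ± 0.44 (adjusted p = 0.266 and 0.323).

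**Figure D4:**
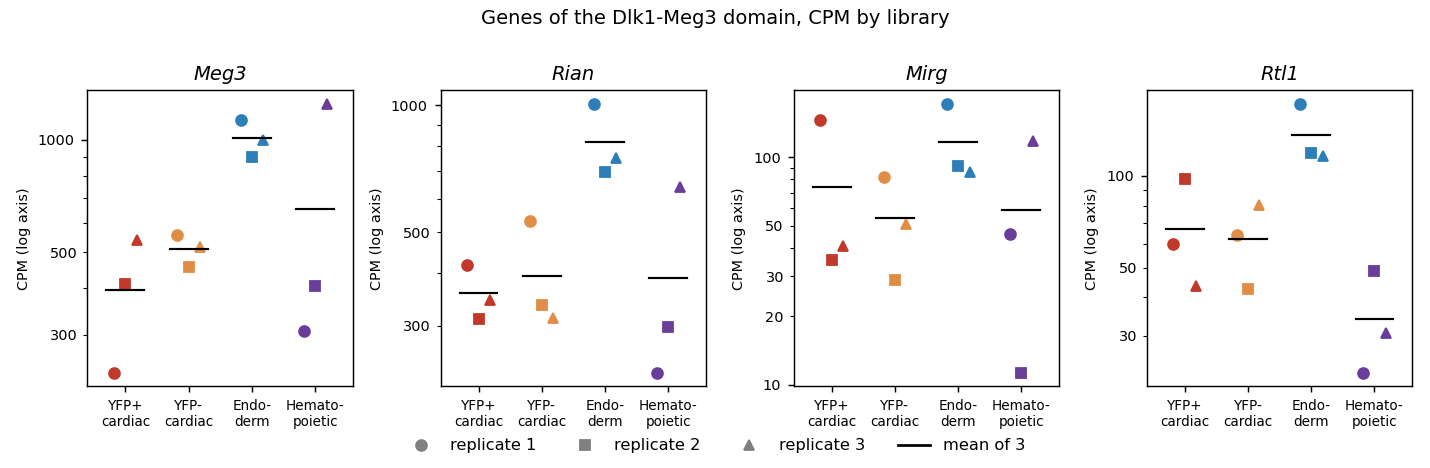
CPM on a log axis of Meg3, Rian, Mirg and Rtl1 in each of the 12 libraries, with the mean of 3 as a line. Endoderm has the highest mean of the 4 types in each panel, and hematopoietic replicate 3 is high for Meg3 (1249.8 CPM), Rian (639.9 CPM) and Mirg (118 CPM) and low for Rtl1 (30.7 CPM).

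Reads of Rtl1 have a strand limit that bears on these values. The strand setting of the counting is not given in the sources used here, and maternal transcripts of the opposite strand carry 6 microRNA hairpins whose 11 mature products lie inside Rtl1 exons. The reverse complement of each of the 11 was found in an Rtl1 transcript, and they have 11 different seeds, so no 2 form a seed family. Shown here are 4 mature sequences from RefSeq (GRCm38.p6), with the seed, bases 2 to 8, in capitals, because they mark where reads of the 2 strands could be confused.
mmu-miR-127-3p: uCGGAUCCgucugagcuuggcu
mmu-miR-431-5p: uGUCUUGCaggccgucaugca
mmu-miR-433-3p: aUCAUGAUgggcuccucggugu
mmu-miR-136-5p: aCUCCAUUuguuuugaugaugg

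Peg10, the other member derived from a retrotransposon, is paternally expressed and needed for placental formation. It measured 1610.3, 1465 and 1233 CPM in YFP+ cardiac, 1431, 1329 and 1337 in YFP- cardiac, 975, 591 and 702 in endoderm and 1061, 762 and 1791 in hematopoietic mesoderm. The 3 endoderm libraries were below the 6 cardiac ones, and the hematopoietic libraries spread across both. Log2 fold changes over endoderm were 0.93 ± 0.25 for YFP+ cardiac (adjusted p = 0.0913) and 0.85 ± 0.25 for YFP- cardiac mesoderm (adjusted p = 0.138). Without hematopoietic replicate 3 these became 0.0137 and 0.0223, and the YFP+ pair also passed without hematopoietic replicate 2 (0.0389). Both pairs passed with DESeq2 (0.0108 and 0.0316), voom (0.0033 and 0.000261) and no expression filter (0.0176 and 0.0351). They also passed with the 2 types fitted alone (0.03 and 0.0118). Neither passed with RLE scaling, a mean of at least 5 CPM or the replicate number as a block.

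Peg3, a paternally expressed zinc finger repressor, had the highest CPM of the list in every library, with 2837, 2891 and 2582 in YFP+ cardiac, 2681, 2455 and 2519 in YFP- cardiac, 2194, 1872 and 1682 in endoderm and 2166, 2064 and 3055 in hematopoietic mesoderm. Endoderm libraries were below all 6 cardiac libraries, by 0.53 ± 0.14 on the log2 scale against YFP+ (adjusted p = 0.0724, and 0.00781 without hematopoietic replicate 3). That pair passed with DESeq2 (0.0185), voom (0.00315), no expression filter (0.0167) and the 2 types fitted alone (0.0282). It did not pass with RLE scaling, a mean of at least 5 CPM or the replicate number as a block. Usp29, which encodes a ubiquitin protease, is transcribed away from Peg3 off the same stretch of DNA. Usp29 measured 4.58, 39.4 and 0.19 CPM in YFP+ cardiac, 0, 7.43 and 4.20 in YFP- cardiac, 2.54, 4.27 and 0.36 in endoderm and 0, 0 and 36.8 in hematopoietic mesoderm. It was thus far below Peg3 in every library, and it exceeded 10 CPM in only 2 of them. The 163 bases between the RefSeq starts of the 2 genes (GRCm38.p6, chr7:6730420-6730582, plus strand) are shown because a single short interval serves both, with its 5 CpG in capitals.
Peg3-Usp29: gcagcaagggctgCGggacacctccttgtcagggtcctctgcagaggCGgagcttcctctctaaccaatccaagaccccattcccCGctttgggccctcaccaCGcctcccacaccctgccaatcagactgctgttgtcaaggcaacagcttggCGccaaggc

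The remaining transcription factors were low or uneven. Zim1, a maternally expressed zinc finger gene next to Peg3, was 29.8, 18.6 and 5.18 CPM in YFP+ cardiac, 31.7, 9.11 and 16.8 in YFP- cardiac, 2.39, 3.50 and 5.94 in endoderm and 19.996, 1.91 and 0.21 in hematopoietic mesoderm. Its endoderm libraries were below the YFP- cardiac ones (log2 fold change 2.28 ± 1.33, YFP- cardiac over endoderm, adjusted p = 0.71). Ascl2, a basic helix-loop-helix factor of the trophoblast, was 118 CPM (490 counts) in hematopoietic replicate 1, and 0.17 and 0 CPM in replicates 2 and 3. In the other types it was 0, 0 and 0.93 CPM in YFP+ cardiac, 5.70, 0 and 0.14 in YFP- cardiac and 5.25, 5.05 and 15.9 in endoderm. Plagl1, a zinc finger factor that regulates other imprinted genes, stayed between 0.42 and 13.5 CPM.

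Nnat read lowest in hematopoietic mesoderm. As lowest in that type against each of the other 3, 0 members passed in the main edgeR fit (all genes 0.318%). Nnat alone passed this rule in edgeR with no expression filter, with a mean of at least 5 CPM, and without hematopoietic replicate 2 or 3. At an unadjusted p under 0.05 there were 5 (Gnas, Nap1l5, Ndn, Nnat and Sgce), and DESeq2 called 4 (Gnas, Ndn, Nnat and Sgce). The shares of all genes at an unadjusted p or with DESeq2 were not counted for this rule. These 2 counts therefore cannot be read as a trait of the members. In each cardiac type the count of members lowest there was 0 with both tools and at an unadjusted p under 0.05. Nnat encodes neuronatin, a small membrane protein of the endoplasmic reticulum, is paternally expressed, and lies on chromosome 2 (157560078 to 157562522) within an intron of Blcap. Nnat measured 33.3, 45.2 and 23.9 CPM in YFP+ cardiac, 48.9, 34.5 and 28.4 in YFP- cardiac and 39.8, 54.6 and 45.6 in endoderm. In hematopoietic mesoderm it was 0.24, 3.46 and 3.15 CPM, from 1 to 20 counts a library, and all 3 libraries were below the other 9. Endoderm was 20.1-fold higher (log2 fold change 4.33 ± 0.85, adjusted p = 0.0137), YFP+ cardiac 14.7-fold (3.87 ± 0.83, adjusted p = 0.0395) and YFP- cardiac 16.01-fold (4.001 ± 0.84, adjusted p = 0.0518). The endoderm call was lost without endoderm replicate 2 or 3 (adjusted p = 0.0614 and 0.0548). The YFP+ call was lost without any 1 of the 9 cardiac and endoderm libraries (adjusted p of 0.0596 to 0.0854), with the 2 types fitted alone (0.425), with voom (0.2) and with the replicate number as a block (0.0725). The YFP- pair passed without hematopoietic replicate 2 or 3 (0.0469 and 0.0455).

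Other membrane and secreted members were mostly uneven. Sgce, or epsilon-sarcoglycan, a paternally expressed neighbour of Peg10, was 25.2, 17.5 and 93.8 CPM in YFP+ cardiac, 58.0, 37.7 and 24.8 in YFP- cardiac, 56.8, 44.9 and 44.1 in endoderm and 14.5, 5.02 and 1.05 in hematopoietic mesoderm. Its hematopoietic libraries were below the other 9, with log2 fold changes of 2.55 to 2.83 for the other types over it and adjusted p of 0.0829 to 0.184. Leaving out a library moved the YFP+ value from 1.65 (without YFP+ replicate 3) to 3.89 (without hematopoietic replicate 1). DESeq2 called all 3 of those pairs. Cd81, a tetraspanin of the cell surface, was even within types, at 117, 119 and 107 CPM in YFP+ cardiac, 109, 89.4 and 95.3 in YFP- cardiac, 91.0, 90.4 and 109 in endoderm and 153, 202 and 166 in hematopoietic mesoderm. Hematopoietic libraries were above all others, and the nearest call was endoderm over hematopoietic mesoderm (-0.85 ± 0.24, adjusted p = 0.0539). DESeq2 and voom called that pair for Cd81, and DESeq2 also called YFP- cardiac against hematopoietic mesoderm. Slc22a18, an organic cation transporter, was at 0 in 6 of 12 libraries, all 3 hematopoietic ones among them, and at most 16.1 CPM.

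Mest, a paternally expressed gene of the alpha/beta-hydrolase fold and a classical marker of mesoderm, was lowest in endoderm. It measured 481, 518 and 332 CPM in YFP+ cardiac, 386, 348 and 324 in YFP- cardiac, 251, 243 and 241 in endoderm and 547, 437 and 475 in hematopoietic mesoderm. The 3 endoderm libraries were close together and below all 9 others. Mest was 1.81-fold higher in YFP+ cardiac mesoderm than in endoderm (log2 fold change 0.86 ± 0.17, adjusted p = 0.0234), and endoderm had 1.99-fold less of it than hematopoietic mesoderm (-0.99 ± 0.17, adjusted p = 0.00664). The YFP- pair gave 0.53 ± 0.17 (adjusted p = 0.182). The YFP+ call was lost without any 1 of YFP+ replicates 1 and 2, YFP- replicates 1 and 3 and the 3 endoderm libraries (adjusted p of 0.053 to 0.17), and the hematopoietic call without endoderm replicate 2 or 3 (0.0528 and 0.0554). Exons of Mest overlap those of Copg2 on the opposite strand over 912 bases, whose reads cannot be assigned to either gene without strand.

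ZFP57 is the zinc finger protein that protects imprints after fertilization and binds the hexamer TGCCGC when it is methylated. The hexamer, on either strand, occurred in 8.68% of the 32851 windows of 250 bases before RefSeq starts. It occurred in 7 of 38 windows (18.4%) of the 26 members with an entry, those of Meg3, Mest, Nap1l5, Plagl1, Zdbf2 and Zim1. Of these 7, 2 are windows of Mest that start 3 bases apart, the members' windows held a median of 12.5 CpG against 6 over all genes, and a match describes the letters only. The downstream start of Mest (GRCm38.p6, chr6:30737800-30738049, plus strand) is shown with its 2 matches in capitals, both on the opposite strand and so written GCGGCA.
Mest: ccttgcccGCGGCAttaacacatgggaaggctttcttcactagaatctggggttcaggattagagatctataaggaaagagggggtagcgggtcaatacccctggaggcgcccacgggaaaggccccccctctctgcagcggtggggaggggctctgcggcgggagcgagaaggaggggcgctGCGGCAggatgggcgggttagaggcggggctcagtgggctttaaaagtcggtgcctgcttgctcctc

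Ppp1r9a, which encodes neurabin, an actin-binding partner of protein phosphatase 1, read lower in both cardiac populations than in the other types. This maternally expressed neighbour of Peg10 (chromosome 6, 4902917 to 5165661) measured 55.2, 28.6 and 32.02 CPM in YFP+ cardiac and 126, 39.9 and 33.0 in YFP- cardiac mesoderm. In endoderm it was 295, 282 and 265 CPM and in hematopoietic mesoderm 305, 254 and 132 CPM, above all 6 cardiac libraries. YFP+ cardiac mesoderm was 7.28-fold lower than endoderm (log2 fold change -2.86 ± 0.50, adjusted p = 0.0114) and 5.97-fold lower than hematopoietic mesoderm (-2.58 ± 0.50, adjusted p = 0.0242). The YFP- pairs gave -2.08 ± 0.49 (adjusted p = 0.0575) and -1.80 ± 0.48 (0.107), and both passed without YFP- replicate 1, the highest cardiac library (-2.97 and -2.65, adjusted p = 0.00729 and 0.0271). The YFP- pair with endoderm also passed without hematopoietic replicate 3 (0.0292). Among the settings other than leaving out a library, it missed the threshold only with RLE scaling (0.0541). The YFP- pair with hematopoietic mesoderm passed with no expression filter (0.0411), DESeq2 (0.00502) and voom (0.0366). It did not pass with the remaining settings of that kind, such as the 2 types fitted alone (0.296). The endoderm call of YFP+ cells was lost without YFP+ replicate 2 or 3 or endoderm replicate 1 (0.0541 to 0.059), and the hematopoietic call without those or hematopoietic replicate 1 (0.0506 to 0.0792), with voom (0.111) and with the 2 types fitted alone (0.115).

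Gnas, the gene of the stimulatory G protein alpha subunit and of several imprinted alternative transcripts, was lowest in hematopoietic mesoderm. It measured 117, 83.7 and 164 CPM in YFP+ cardiac, 50.1, 79.0 and 73.7 in YFP- cardiac, 113, 98.9 and 121 in endoderm and 35.9, 25.8 and 30.2 in hematopoietic mesoderm. No hematopoietic library reached any other library. YFP+ cardiac mesoderm was 3.96-fold higher (log2 fold change 1.99 ± 0.36, adjusted p = 0.0177), endoderm 3.62-fold higher (1.86 ± 0.36, adjusted p = 0.0131) and YFP- cardiac mesoderm 2.21-fold higher (1.14 ± 0.35, adjusted p = 0.147). The first call was lost without YFP+ replicate 3 (0.0679), with voom (0.239) and with the 2 types fitted alone (0.244). The second was lost without endoderm replicate 1 or 3 (0.0553 and 0.0663) and with voom (0.0509). Gnas exons overlap those of 2 genes on the opposite strand, Nespas and Gm20721, and the larger of the overlaps is 1469 bases. The counts pool all Gnas transcripts.

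**Figure D5:**
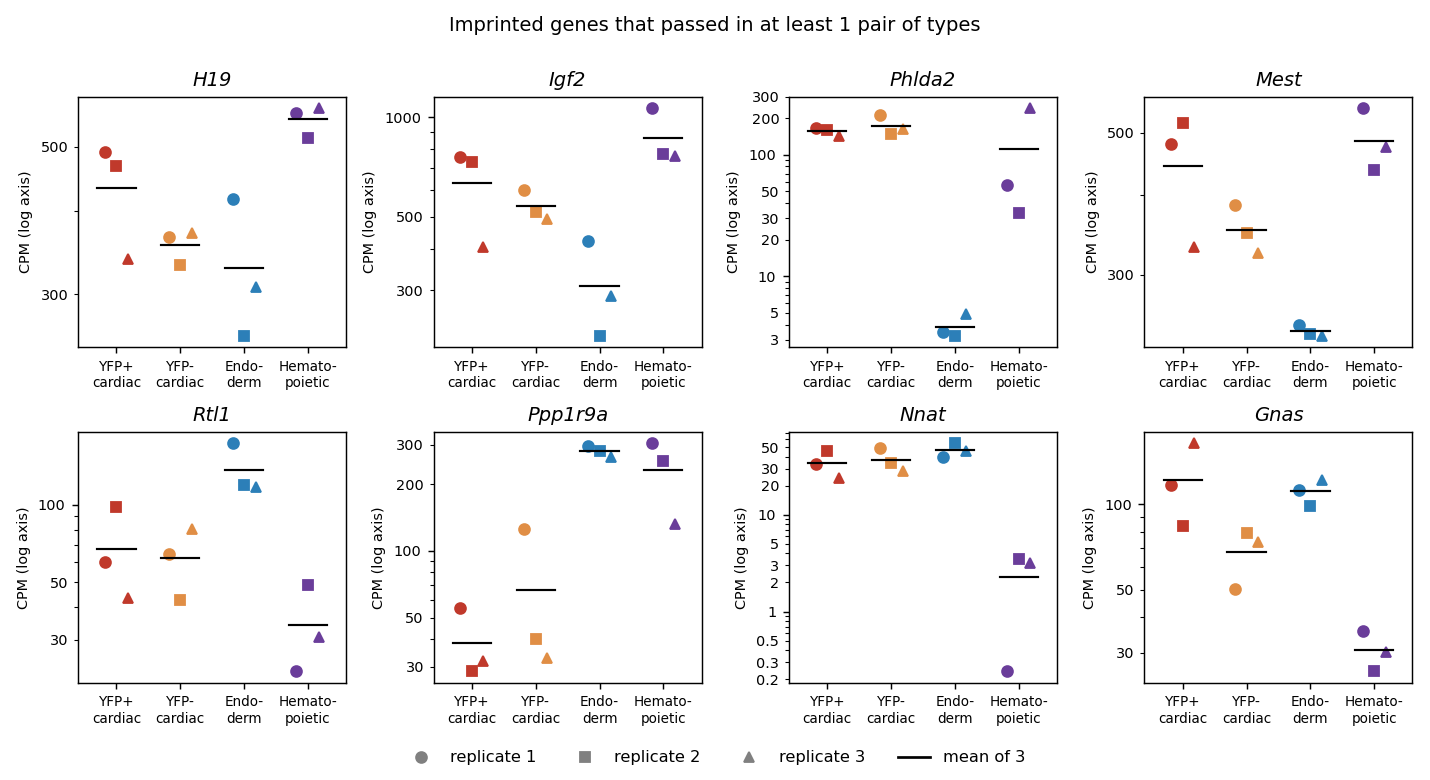
CPM on a log axis of the 8 imprinted genes that passed in at least 1 pair of types, for each of the 12 libraries, with the mean of 3 as a line. Phlda2 and Mest are lowest in endoderm, Nnat and Gnas are lowest in hematopoietic mesoderm, and Ppp1r9a is lowest in the cardiac types.

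The other paternally and maternally expressed members did not pass in any pair of the main fit. With DESeq2, Impact passed between YFP- cardiac and hematopoietic mesoderm, and Nap1l5 between YFP+ cardiac and hematopoietic mesoderm. Between endoderm and hematopoietic mesoderm Impact passed with voom, and Ube3a with DESeq2 and with no expression filter. Zdbf2 passed between YFP+ cardiac mesoderm and endoderm with the 2 types fitted alone. Zdbf2, a zinc finger gene, was 386, 397 and 416 CPM in YFP+ cardiac, 279, 326 and 357 in YFP- cardiac, 230.1, 274 and 289 in endoderm and 458, 575 and 234 in hematopoietic mesoderm, and it passed between the last 2 types without hematopoietic replicate 3 and with voom. Ube3a, the ubiquitin ligase of Angelman syndrome, was 168, 167 and 163, 198, 163 and 143, 122, 89.6 and 103 and 294, 107 and 306 CPM in the same order of types. Endoderm over hematopoietic mesoderm gave -1.16 ± 0.33 (adjusted p = 0.056, and 0.00334 without hematopoietic replicate 2, where Ube3a was 107 CPM). Impact, a regulator of translation, was 105, 119 and 97.5, 64.3, 43.4 and 90.4, 87.0, 59.6 and 67.3 and 153, 149.6 and 103 CPM in that order. Zrsr1, a splicing factor copy whose exons overlap Commd1 on the opposite strand over 412 bases, ran from 10.8 to 111 CPM and overlapped in all pairs of types, with 42.04, 18.4 and 111, 44.4, 68.1 and 35.8, 35.8, 24.0 and 40.9 and 10.8, 36.9 and 50.4 CPM. Magel2, a Prader-Willi domain gene that regulates ubiquitin ligases, was 8.32, 3.83 and 0.37, 15.2, 17.5 and 6.81, 19.7, 30.3 and 8.91 and 0, 11.1 and 10.7 CPM. Nap1l5, a nucleosome assembly protein gene, was at 0 in all 3 hematopoietic libraries and reached 9.99 CPM in the others.

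A few members were high in 1 library of a type and near 0 in another. Their counts are too small to set them apart from all genes. Of the 24 members with at least 100 counts in a hematopoietic library, 3 (Ascl2, Usp29 and Dlk1) had 3 counts or fewer in another library of that type, or 12.5%, and the same held for 14.96% of all genes. In YFP+ cardiac mesoderm it was 1 of 25 members, Usp29 (4%, against 9.30% of all genes). In YFP- cardiac mesoderm it was 0 of 26 (all genes 3.48%) and in endoderm 0 of 26 (all genes 0.518%).

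A further list of 54 imprinted genes outside these 35 was matched for 49 and tested for 32. Slc38a4, a paternally expressed amino acid transporter, was lower in endoderm (71.6, 127 and 97.6 CPM) than in the other 9 libraries (239 to 473 CPM), like Phlda2 against all 3 types. Its log2 fold changes were 1.58 ± 0.25 for YFP+ cardiac over endoderm (adjusted p = 0.00603), 1.77 ± 0.25 for YFP- cardiac (0.00321) and -1.87 ± 0.25 for endoderm over hematopoietic mesoderm (0.00153). Asb4, a neighbour of Ppp1r9a, was higher in YFP+ (2.03 ± 0.31, adjusted p = 0.00868) and YFP- cardiac mesoderm (1.63 ± 0.31, 0.0357) than in hematopoietic mesoderm. Calcr was 6.99 to 16.9 CPM in endoderm and at 0 in all 3 hematopoietic libraries (adjusted p = 0.0354). No other gene of this list passed in any pair, and 0 passed between the cardiac populations.

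Among 11 factors that maintain imprints, 10 were tested and 1 passed in a single pair. Uhrf1, which brings the maintenance methyltransferase to replicated DNA, was 158, 149 and 150.3 CPM in endoderm and 221, 252 and 332 CPM in hematopoietic mesoderm (log2 fold change -0.82 ± 0.21, adjusted p = 0.0438). Trim28, the corepressor bound by ZFP57, stayed between 249 and 384 CPM in all 12 libraries, and Dnmt1 between 290 and 497 CPM. Zfp57 was 22.2 CPM in hematopoietic replicates 1 and 2 and 207 CPM in replicate 3, and 64.1 to 232 CPM in the other types. Dppa3, which shields maternal imprints in the zygote, was at 0 in 11 libraries.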

How the data were processed

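RNA of 12 sorted libraries was sequenced after low-input amplification. The deposited values are whole-number counts of reads per gene, made by the authors and not normalized, with 5 summary categories per library that stayed out of all sizes and tests (reads in genes were 18.3% to 21.5% of the tallied reads, reads aligned to more than 1 place 35.1% to 44.8%, and reads in no gene 34.5% to 43.6%). The submitters' processing notes name mm10, STAR 2.5.0a, Picard, HTSeq 0.6.0 and DESeq2 with no roles; the annotation and the strand setting are not given in the sources used here. Reads of near-identical or overlapping genes may be missing or misplaced.

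Members were matched by Ensembl identifier without version. Counts were fitted with edgeR 4.0.16 in R 4.3.3 (TMM scaling, default expression filter, which kept 14170 genes, quasi-likelihood test, 1 coefficient per type over all 12 libraries, 8 residual degrees of freedom), two-sided, with Benjamini-Hochberg adjustment over all genes of a pair and a threshold of 0.05. Levels are CPM after TMM scaling, and RPKM uses exon lengths of a GENCODE annotation of GRCm38, which also gave the coordinates and overlaps. Members called in a pair, or averaging at least 10 CPM in a type, are given per library and the others by range and count. The members and all lists were chosen with earlier results of these data known. A gene of the lists is not reported here. The edgeR fit was also run on simulated counts. Alternatives were RLE scaling, other filters, DESeq2 1.42.0, voom in limma 3.58.1, the replicate number as a block, fits of the 2 types alone and leaving out each library. Replicate numbers come from the titles. The labels do not say that they mark a shared litter, batch or day, so they were not used as pairs in the main fit. Over the tested genes, deviations of same-numbered libraries correlated between -0.018 and 0.032, a value that cannot speak for single genes. The deposited file names carry a date shared by the same-numbered libraries of all 4 types, and what it marks is not given in the sources used here. Sequences are from RefSeq, GRCm38.p6, and 26 of 33 members had a promoter entry.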

Additional observations from a re-analysis of the deposited data

How the results depend on the processing

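The number of members passing between YFP+ and YFP- cardiac mesoderm, and the number highest in either cardiac type or in hematopoietic mesoderm, was 0 under every alternative run. The share of all genes passing is given after the counts of each pair, and the counts did not always move with it. With no expression filter, more members passed in each pair with endoderm while the share of all genes fell. For YFP+ cardiac mesoderm against endoderm, 3 members became 8 with no expression filter, 7 with DESeq2, 7 with voom and 8 when the 2 types were fitted alone, and 1 to 7 when each library was left out. Of all genes 1.54% became 1.15%, 6.52%, 7.97% and 8.28% in that order, and 0.473% to 2.65%. For YFP- cardiac mesoderm against endoderm, 1 became 3 with no filter, 2 with a mean of at least 5 CPM, 4 with DESeq2, 9 with voom and 9 with the 2 types alone, and 1 to 5 with each library left out. Of all genes 1.31% became 1.07%, 1.96%, 4.27%, 12.8% and 10.1% in that order, and 0.46% to 2.14%. For YFP+ cardiac against hematopoietic mesoderm, 3 became 7 with DESeq2, 0 with voom and 0 with the 2 types alone, and 0 to 4 with each library left out. Of all genes 1.79% became 10.5%, 0.127% and 0.121% in that order, and 0.695% to 2.79%. For YFP- cardiac against hematopoietic mesoderm, 0 became 2 with no filter, 1 with a mean of at least 5 CPM, 8 with DESeq2 and 1 with voom, and 0 to 2 with each library left out. For endoderm against hematopoietic mesoderm, 7 became 9 with no filter, 12 with DESeq2 and 9 with voom, and 1 to 9 with each library left out. Of all genes 5.65% became 2.85%, 13.2% and 8.65% in that order, and 1.199% to 6.41%. Members highest in endoderm went from 0 to 1 with DESeq2 (Rian) and to 1 with voom (Meg3), and were 0 to 1 with each library left out. Members lowest in endoderm went from 1 to 3 with voom (Igf2, Mest and Phlda2) and 2 with the 2 types alone (Mest and Phlda2). Members lowest in hematopoietic mesoderm went from 0 to 1 with no filter and with a mean of at least 5 CPM, and to 4 with DESeq2. They were 0 to 1 with each library left out. Shares of all genes for the highest and lowest rules were counted in the main fit only. Over 41 named gene and pair values, 649 recomputed values kept direction and side of the threshold, 76 newly passed, 54 no longer passed and 0 reversed, and the cause was not tested. RLE scaling moved no count by over 1.5 times. Of 112 levels, 4 moved by over 1 SD without TMM factors (H19 in hematopoietic mesoderm, Mest and Ppp1r9a in endoderm, Ube3a in YFP+ cardiac mesoderm). Of 33 members, 22 had over 3 counts in every library, and levels from 3 counts or fewer lie near the limit of detection at this depth.

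With the replicate number as a block, the counts of members passing were 0, 4, 2, 2, 0 and 7 for YFP+ against YFP- cardiac, YFP+ cardiac against endoderm, YFP- cardiac against endoderm, YFP+ cardiac against hematopoietic, YFP- cardiac against hematopoietic and endoderm against hematopoietic mesoderm. Of all genes 0%, 1.26%, 1.01%, 0.939%, 0.219% and 3.85% passed in the same order. The block added Igf2 (YFP+ cardiac against endoderm, adjusted p = 0.033) and Ppp1r9a (YFP- cardiac against endoderm, adjusted p = 0.0135), and Nnat (YFP+ cardiac against hematopoietic, adjusted p = 0.0725) no longer passed. Same-numbered libraries share a date in their file names, whose meaning the labels do not give.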
